A study of Arabidopsis thaliana with 36 samples.

Results

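The genes of the chloroplast and mitochondrial genomes of Arabidopsis thaliana were followed through roots and leaves of the opt3-2 mutant and of the wild type Columbia-0 by RNA sequencing. Members were all genes whose identifier starts with ATCG (chloroplast) or ATMG (mitochondrion) and that had at least 10 reads summed over the libraries. This gave 216 of the 28775 genes counted. The chloroplast contributed 108 members of its 133 listed genes, with 25 under the minimum and 1 of these at 0 reads. The mitochondrion contributed 108 of 146, with 38 under the minimum and 5 of these at 0 reads. ATMG00350, ATMG00550 and ATMG00740 lay just inside the minimum with 10 reads each, and ATCG01150, ATMG00450 and ATMG00930 just outside it with 9 reads each.

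Chloroplasts and mitochondria descend from bacteria and keep small genomes of their own. The chloroplast genome encodes parts of the photosystems, of Rubisco and of the plastid ribosome, and the mitochondrial genome encodes parts of the respiratory chain, of ATP synthase and of its own ribosome. Many of these complexes carry iron as heme or iron-sulfur clusters. Organelle genes are read by a plastid-encoded RNA polymerase, which depends on nuclear-encoded sigma factors, and by nuclear-encoded polymerases of the phage type. Organelle transcripts mostly lack the stable poly(A) tails of nuclear mRNA, and in organelles such a tail marks RNA for degradation, so what a library holds of them depends on how its RNA was selected.

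The 4 groups were opt3-2 roots, Columbia-0 roots, opt3-2 leaves and Columbia-0 leaves, with 3 biological replicates each. The mutant is 1 line, mutated in OPT3, a transporter known for loading iron into the phloem. Seedlings spent 11 days on plates and 22 days in hydroponics, in a cycle of 16 h light and 8 h dark, and each RNA sample pooled 3 to 4 plants. All groups share a label of replete medium and also a treatment text that names 20 µM CdCl2 for 72 h, and which of these applied is not settled by the labels.

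Counted reads per replicate were 27451463 to 31065807 in opt3-2 roots and 25828387 to 30909804 in Columbia-0 roots, 36705595 to 37685493 in opt3-2 leaves and 23981444 to 30816450 in Columbia-0 leaves. OPT3 averaged 19.4 ± 1.4 CPM in opt3-2 leaves and 102 ± 23.8 CPM in Columbia-0 leaves (SD, n = 3 each), a log2 fold change of -2.40 (edgeR adjusted p = 2.66e-06). In roots it averaged 5.64 ± 0.774 CPM in opt3-2 and 7.51 ± 0.798 CPM in Columbia-0 (SD, n = 3 each), which did not pass the test (edgeR adjusted p = 0.125). Here CPM are counts per 1000000 reads of effective library size, which corrects for the makeup of the library, whereas RPM are plain reads per 1000000 counted reads. Count columns end in a number that no label explains, read here as the run. All opt3-2 replicates carry numbers 1 to 3. Columbia-0 carries 5 to 7 in root replicates 1 and 2 and leaf replicate 3, and 2 to 4 in its other replicates. The genotypes share no whole set, so run set and genotype cannot be fully told apart. The run set used below as a term separates 5 to 7 from the other sets, a split found only within Columbia-0.

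The deposited identifiers come without names for most members. RefSeq's annotation of TAIR10.1 uses other identifiers for organelle genes, and its notes on nuclear genes describe only 6 chloroplast members and 24 mitochondrial members by function. Another 20 mitochondrial members are described there as unknown proteins. The remaining 102 chloroplast and 64 mitochondrial members are given by identifier alone, with no role.

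A copy of much of the mitochondrial genome lies on chromosome 2 of the nucleus. Of the mitochondrial members, 44 pair with 45 chromosome 2 genes in the same count table. Over the best aligned stretch, 22 of these genes were identical to the mitochondrial genome and the least alike had 99.72% identity. That stretch did not always span the whole gene, and for AT2G07749 it covered 2115 of 2355 bases. The paired members held 2172 reads in opt3-2 roots and 1908 in Columbia-0 roots, 3533 in opt3-2 leaves and 2633 in Columbia-0 leaves. Their chromosome 2 genes held 1993 and 1737 reads in the same root groups, and 3177 and 2462 in the same leaf groups. AT2G07695, the copy paired with ATMG01280 (described as cytochrome c oxidase subunit II-like), matches the mitochondrial genome over 1898 bases with 2 mismatches. The stretch around 1 of these is shown. Between these sequences, a short read can be assigned to one copy or the other only where it covers a mismatched base, given in capitals. The first line is chr2:3347054-3347134, plus strand, and the second is MT:84211-84291, minus strand, both from RefSeq in TAIR10.1.
AT2G07695: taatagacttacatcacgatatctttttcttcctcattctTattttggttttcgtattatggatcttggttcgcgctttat
mitochondrial genome: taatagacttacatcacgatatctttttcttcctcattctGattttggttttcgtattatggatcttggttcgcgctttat
Reads of such pairs may have been split between the genes in counting, so values of the paired members are uncertain. Of the mitochondrial members with values given here, this applies at least to ATMG00180, ATMG00480, ATMG00550, ATMG00590, ATMG00980, ATMG01080, ATMG01090, ATMG01190, ATMG01280 and ATMG01320. Only nuclear genes whose notes name a mitochondrial identifier were aligned, so copies of the other members were not searched for. The submitters' processing notes name the build TAIR10. Whether its mitochondrial sequence has the same mismatches and identities was not checked.

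Leaves held far more chloroplast reads than roots, and roots held more mitochondrial than chloroplast reads. Chloroplast members took 1093, 1539 and 1009 RPM in opt3-2 leaves, against 1186, 1392 and 1569 in Columbia-0 leaves. In roots they took 58.2, 107 and 57.6 RPM in opt3-2, against 76.7, 59.2 and 48.5 in Columbia-0. Genotypes overlapped in both tissues, and exact two-sided permutation tests gave p = 0.4 in leaves and p = 0.7 in roots, where 0.1 is the smallest p that 3 against 3 allows. In roots opt3-2 exceeded Columbia-0 by 12.85 RPM on average, and by -3.58 without opt3-2 root replicate 2; this library set the direction.

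Mitochondrial members took 302, 482 and 327 RPM in opt3-2 roots, against 305, 283 and 244 in Columbia-0 roots. In leaves they took 161, 166 and 150 RPM in opt3-2, against 156, 172 and 169 in Columbia-0. These groups overlapped as well, with exact p = 0.2 in roots and p = 0.4 in leaves. The mitochondrial to chloroplast read ratio was 0.134 in opt3-2 leaves and 0.121 in Columbia-0 leaves, against 5.12 in opt3-2 roots and 4.59 in Columbia-0 roots.

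A few members dominated each genome. ATCG00920, ATCG00950, ATCG01180 and ATCG01210 held 78.7% to 84.6% of chloroplast reads, as the mean of the replicates of a group. They fall into pairs with nearly equal totals: 71649 reads for ATCG00950 and 72002 for ATCG01180, and 36301 for ATCG00920 and 36086 for ATCG01210. Within single replicates the ratio of the first pair ranged from 0.860 to 1.05 and that of the second from 0.892 to 1.05. ATCG00830 and ATCG01310 had totals of 1446 and 1487 reads, with a wider ratio of 0.714 to 1.71 within single replicates. ATMG00020 and ATMG01390 held, as means over replicates, 75.3% of mitochondrial reads in opt3-2 roots and 69.8% in Columbia-0 roots, but 40.6% in opt3-2 leaves and 36.0% in Columbia-0 leaves.

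Once these dominant members were set aside, the genotypes separated in chloroplast reads of leaves. The other 104 chloroplast members took 188, 212 and 153 RPM in opt3-2 leaves, against 255, 285 and 275 in Columbia-0 leaves. Every opt3-2 leaf replicate lay below every Columbia-0 leaf replicate, with a ratio of means of 0.679. In roots the same members took 10.5, 12.9 and 11.0 RPM in opt3-2, against 14, 12.7 and 11.7 in Columbia-0, and the groups overlapped. The other 106 mitochondrial members took 99.4, 93.2 and 90.1 RPM in opt3-2 leaves, against 102.5, 113 and 102 in Columbia-0 leaves, again without overlap but closer. The dominant members were set aside after their values were seen, so these sums are given as a description.

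**Figure D1:**
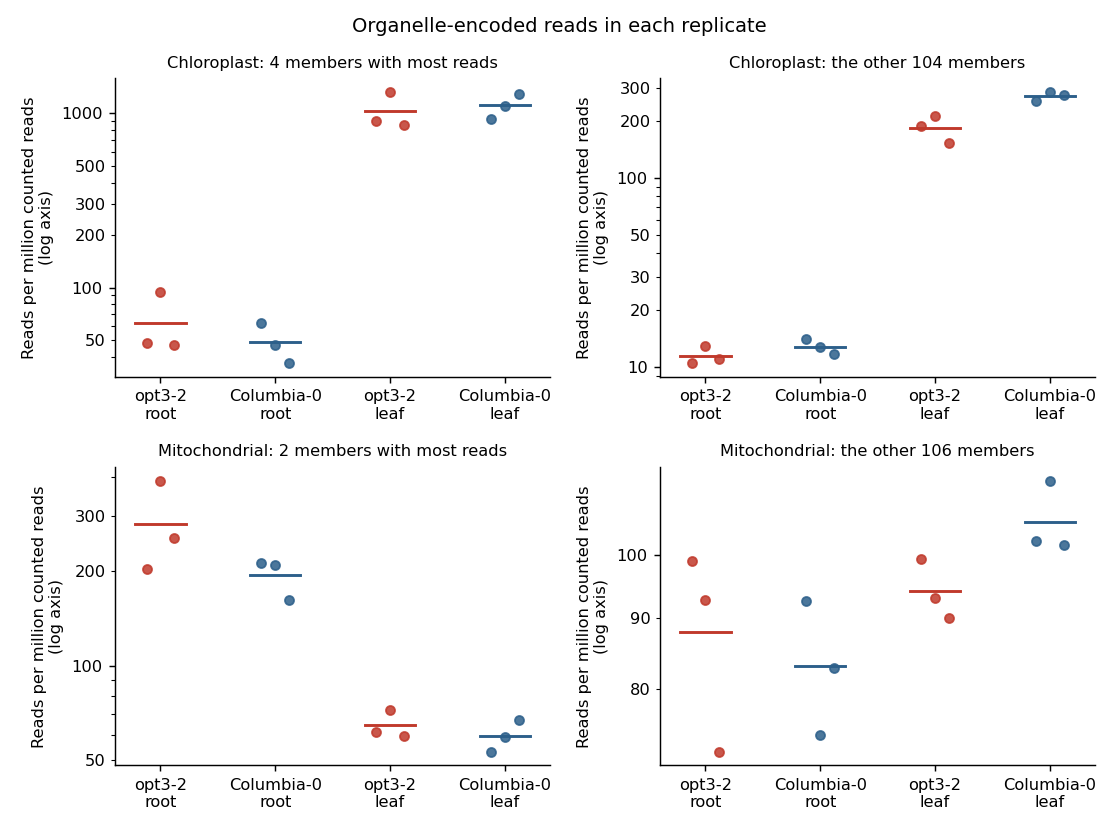
RPM (log axis) in each replicate of the 4 groups, for the dominant members of each genome and for the others; points are replicates and bars are group means. The other 104 chloroplast members lie at 153 to 212 in opt3-2 leaves and at 255 to 285 in Columbia-0 leaves, while the dominant 4 overlap between genotypes.

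Tested one by one, chloroplast members were lower in opt3-2 leaves and none was higher. Of the 76 with enough reads to test, 19 fell and 0 rose (edgeR, adjusted p under 0.05; 37 fell and 0 rose at an unadjusted p under 0.05). Over all 21692 genes tested, 12.6% fell and 15.4% rose in leaves at an adjusted p under 0.05. At that limit the fallen made up a larger share of the members than of all tested genes, and the risen a smaller one. Shares of all tested genes at an unadjusted p were not counted, so unadjusted counts here and below are given as a description. DESeq2 called 22 of the members and limma voom 26, all lower. The DESeq2 calls held 16 of the 19 called by edgeR, and those of limma voom held all 19. The median log2 fold change was -0.58, with a range of -1.42 to -0.02, beside a median of 0 over all tested genes. Counting all 108 members, 106 had a lower mean CPM in opt3-2 leaves and 2 a higher one, and a fit with no read filter called 20 lower and 0 higher. The called members ranged in log2 fold change from -1.42 to -0.70.

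ATCG00480 was the abundant called member, the only one past the abundance limit set for naming. It had 14, 16 and 13.6 CPM in opt3-2 leaves, against 23.2, 25.8 and 25.2 CPM in Columbia-0 leaves. All opt3-2 values were well below all Columbia-0 values, and its log2 fold change was -0.77 (SE 0.083, edgeR adjusted p = 6.82e-05). The members named next were chosen after their values were seen. ATCG01310, described as ribosomal protein L2, a core protein of the large ribosomal subunit, had 6.70, 7.22 and 6.04 CPM in opt3-2 leaves, against 11.6, 12.2 and 11.3 CPM in Columbia-0 leaves. The groups were separate, at a log2 fold change of -0.81 (SE 0.105, edgeR adjusted p = 0.000215). Its near-equal partner ATCG00830 had 5.31, 6.53 and 5.85 CPM in opt3-2 leaves, against 12.2, 12.7 and 11.4 CPM in Columbia-0 leaves. This is a log2 fold change of -1.03 (SE 0.149, edgeR adjusted p = 0.000443), and the pair may share reads.

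ATCG00450 had 5.62, 5.99 and 6.39 CPM in opt3-2 leaves, against 12.4, 12.4 and 10.8 CPM in Columbia-0 leaves. Every mutant value lay below every wild-type value, at a log2 fold change of -0.98 (SE 0.114, edgeR adjusted p = 0.00011). ATCG00530, described as related to the CemA proton extrusion protein of the chloroplast envelope, had 1.87, 2.1 and 1.57 CPM in opt3-2 leaves, against 3.73, 3.65 and 3.83 CPM in Columbia-0 leaves. It fell by 1.01 on the log2 scale (SE 0.235, edgeR adjusted p = 0.00789), with 178 reads in opt3-2 leaves and 258 in Columbia-0 leaves. ATCG01010 gave the lowest log2 fold change of the called members, -1.42 (SE 0.329, edgeR adjusted p = 0.00778). It had 0.154, 0.251 and 0.126 CPM in opt3-2 leaves, against 0.504, 0.490 and 0.450 CPM in Columbia-0 leaves. That comparison rests on 17 reads in opt3-2 leaves and 33 in Columbia-0 leaves. ATCG00080, ATCG00450, ATCG00470, ATCG00480, ATCG00830, ATCG01010 and ATCG01310 kept their call under every alternative setting in which they were tested.

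**Figure D2:**
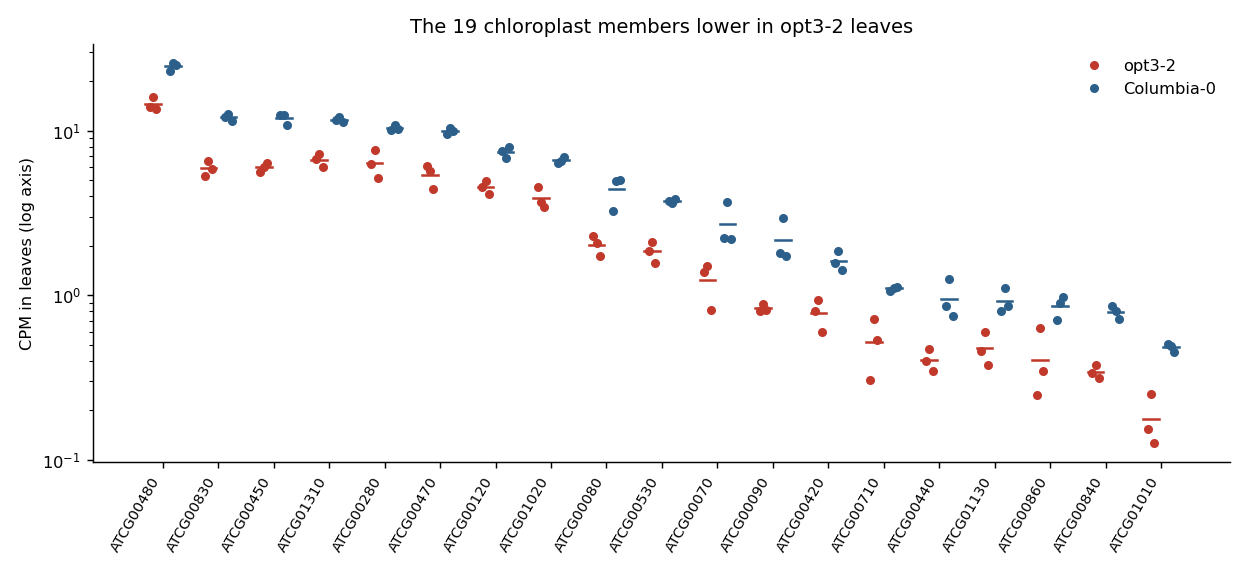
CPM (log axis) of the 19 chloroplast members that fell in opt3-2 leaves, ordered by level in Columbia-0; points are replicates, opt3-2 left of Columbia-0, and bars are group means. In each member the 3 opt3-2 points lie below the 3 Columbia-0 points.

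The 4 most abundant chloroplast members did not pass the test. ATCG00950 had 349, 503 and 330 CPM in opt3-2 leaves, against 373, 451 and 494 CPM in Columbia-0 leaves. The highest single value was in opt3-2 and the groups overlapped, at a log2 fold change of -0.16 (SE 0.265, edgeR adjusted p = 0.707). ATCG00920 had 172, 266 and 170 CPM in opt3-2 leaves, against 192, 207 and 253 CPM in Columbia-0 leaves, a log2 fold change of -0.10 (edgeR adjusted p = 0.822). Their partners gave -0.17 for ATCG01180 (edgeR adjusted p = 0.69) and -0.11 for ATCG01210 (edgeR adjusted p = 0.825). The fifth most abundant, ATCG00020, had 34.4, 45.3 and 28.7 CPM in opt3-2 leaves, against 51.6, 56.8 and 46.3 CPM in Columbia-0 leaves. Its groups did not overlap, yet its log2 fold change of -0.51 (SE 0.196) did not pass the test (edgeR adjusted p = 0.0732). It was called lower under 6 of 17 alternative settings, with adjusted p-values of 0.00639 to 0.214 over them.

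Of the 6 described chloroplast members, 5 were tested in leaves and 2 fell, ATCG01310 and ATCG00530. ATCG00430 averaged 1.26 CPM in opt3-2 leaves and 2.18 CPM in Columbia-0 leaves (log2 fold change -0.79, edgeR adjusted p = 0.0839). The note on it reads photosystem II reaction center protein G, a name that was not checked against the gene itself. ATCG00670, the plastid-encoded ClpP protease subunit, averaged 2.37 CPM in opt3-2 leaves and 3.50 CPM in Columbia-0 leaves (log2 fold change -0.57, edgeR adjusted p = 0.2). ATCG00750, ribosomal protein S11, averaged 0.665 CPM in opt3-2 leaves and 0.874 CPM in Columbia-0 leaves (log2 fold change -0.40, edgeR adjusted p = 0.232). These 3 did not pass the test.

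Nuclear markers of green tissue, 9 genes for light-harvesting proteins, photosystem subunits, the small Rubisco subunit and Rubisco activase, moved in the same direction. Their summed level was 75570 to 79070 CPM in opt3-2 leaves and 88320 to 95070 CPM in Columbia-0 leaves, without overlap, at a median log2 fold change of -0.24. None of the 9 passed the test on its own in leaves, and their part in the chloroplast result was not tested. In bulk tissue, fewer chloroplast-bearing cells and fewer chloroplast transcripts per cell cannot be told apart. When each library was scaled to the chloroplast reads alone, 14 of the same 19 members remained lower and the 4 dominant members turned slightly positive, at log2 fold changes of 0.06 to 0.11. The 4 dominant members make up most of those reads, so this scaling sets the other members mainly against them. It leaves the dominant members themselves little room to differ and cannot decide whether they changed. With library-wide scaling, the count of 19 became 10 without opt3-2 leaf replicate 3 and 12 without Columbia-0 leaf replicate 2.

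**Figure D3:**
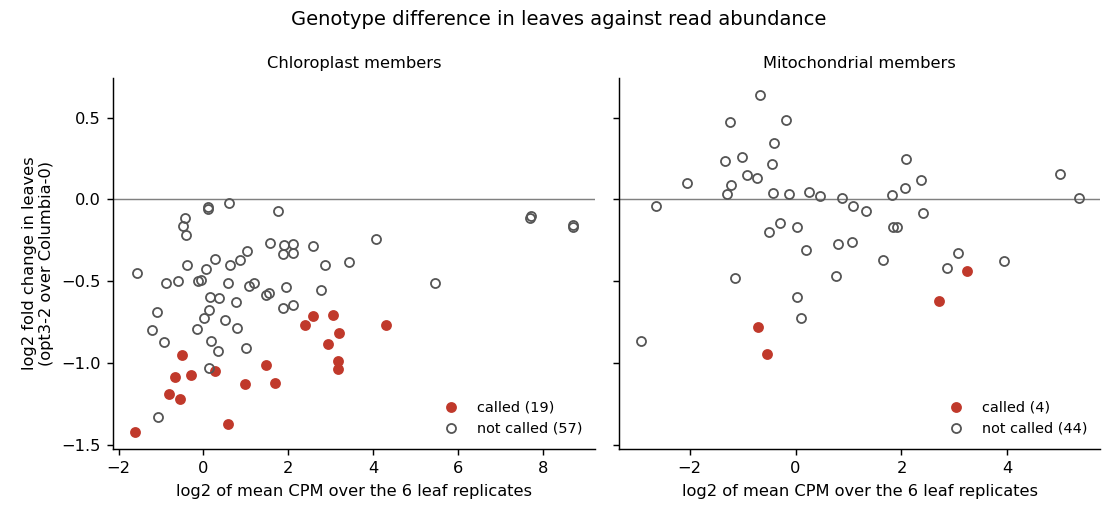
The log2 fold change in leaves (opt3-2 over Columbia-0) of tested members against the log2 of their mean CPM over the 6 leaf replicates, chloroplast left and mitochondrion right; filled points were called at an adjusted p under 0.05. All 76 chloroplast points lie below 0, the 4 most abundant at -0.17 to -0.10 (above 0 when scaled to chloroplast reads alone), whereas mitochondrial points scatter around 0.

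Mitochondrial members had no common direction in leaves. Of 48 tested, 4 fell and 0 rose (edgeR, adjusted p under 0.05), against 12.6% of all tested genes fallen and 15.4% risen. At an unadjusted p under 0.05, 8 fell and 0 rose. DESeq2 called 4 as well, but only 2 of them were among the 4 called by edgeR. Limma voom called 5, with all 4 of the edgeR calls among them. The median log2 fold change was -0.04, and of all 108 members 53 had a higher and 55 a lower mean CPM in opt3-2 leaves.

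The called members were ATMG00510, ATMG01120, ATMG01280 and ATMG01320. ATMG01320, described as subunit 2B of NADH dehydrogenase, which is complex I of the respiratory chain, had 5.74, 4.96 and 4.72 CPM in opt3-2 leaves, against 7.35, 9.08 and 7.24 CPM in Columbia-0 leaves. The groups did not overlap, at a log2 fold change of -0.62 (SE 0.179, edgeR adjusted p = 0.0235). ATMG00510 had 8.20, 8.19 and 7.74 CPM in opt3-2 leaves, against 11.1, 11.3 and 10.3 CPM in Columbia-0 leaves, again separate, at -0.44 on the log2 scale (SE 0.14, edgeR adjusted p = 0.0368). ATMG01280 had 0.430, 0.596 and 0.378 CPM in opt3-2 leaves, against 1.16, 0.668 and 0.900 CPM in Columbia-0 leaves, at -0.94 (SE 0.273, edgeR adjusted p = 0.0235). ATMG01120 had 0.430, 0.408 and 0.503 CPM in opt3-2 leaves, against 0.856, 0.713 and 0.750 CPM in Columbia-0 leaves, at -0.78 (SE 0.255, edgeR adjusted p = 0.0403).

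Each of these 4 calls was lost when some single library was left out. The count of called members was 1, 1 and 0 without opt3-2 leaf replicates 1, 2 and 3, and 2, 1 and 5 without Columbia-0 leaf replicates 1, 2 and 3. ATMG01120 lost its call without any one of the 6 leaf libraries (edgeR adjusted p 0.058 to 0.0987). ATMG00510 lost it without opt3-2 leaf replicate 1, 2 or 3 or Columbia-0 leaf replicate 1 or 2 (edgeR adjusted p 0.0597 to 0.0884), ATMG01320 without opt3-2 leaf replicate 2 or 3 or Columbia-0 leaf replicate 2 (edgeR adjusted p 0.0585 to 0.0761), and ATMG01280 without opt3-2 leaf replicate 1 or 3 or Columbia-0 leaf replicate 1 (edgeR adjusted p 0.0642 to 0.0832).

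The dominant mitochondrial members differed between genotypes in leaves by less than the spread of replicates. ATMG00020 had 34.1, 38.3 and 28.9 CPM in opt3-2 leaves, against 28.8, 30.0 and 32.0 CPM in Columbia-0 leaves (log2 fold change 0.16, SE 0.2, edgeR adjusted p = 0.605). ATMG01390 had 37.0, 45.4 and 40.1 CPM in opt3-2 leaves, against 35.3, 40.8 and 45.3 CPM in Columbia-0 leaves (log2 fold change 0.01, SE 0.223, edgeR adjusted p = 0.98). Both pairs of groups overlapped. ATMG00090, the next in abundance over all samples, had 13.7, 13.3 and 12.8 CPM in opt3-2 leaves, against 14.7, 19.1 and 17.9 CPM in Columbia-0 leaves. It was lower in every mutant replicate but did not pass the test (log2 fold change -0.38, SE 0.143, edgeR adjusted p = 0.071). It was called lower under 6 of 18 alternative settings, with adjusted p-values of 0.0145 to 0.362 over them.

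In roots the chloroplast members showed no common direction. Of 76 tested, 1 rose and 1 fell (edgeR, adjusted p under 0.05), against 8.28% of all tested genes risen and 7.28% fallen. The median log2 fold change was 0.0, and of all 108 members 50 had a higher and 49 a lower mean CPM in opt3-2 roots. ATCG00450, lower in leaves, was also lower in roots, with 0.162, 0.161 and 0.216 CPM in opt3-2, against 0.347, 0.375 and 0.482 CPM in Columbia-0. Its groups were separate at a log2 fold change of -1.14 (SE 0.387, edgeR adjusted p = 0.0284), from 18 reads in opt3-2 and 41 in Columbia-0. Leaving out opt3-2 root replicate 1 or 2, or Columbia-0 root replicate 2 or 3, ended that call (edgeR adjusted p 0.0864, 0.0831, 0.0558 and 0.11).

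ATCG01170 rose, on very few reads: 5, 8 and 9 in opt3-2 roots, against 1, 1 and 1 in Columbia-0 roots. Scaled for depth, the ratio was 7.52, with a 95% counting interval of 2.26 to 39.2, and the log2 fold change was 2.76 (SE 0.647, edgeR adjusted p = 0.0146). Leaving out Columbia-0 root replicate 1 gave an edgeR adjusted p of 0.0501, and leaving out replicate 2 of that group gave 0.0557. ATCG00960, with a near-equal total of 210 reads beside 202, had 5, 2 and 3 reads in opt3-2 roots, against 3, 0 and 1 in Columbia-0 roots, and did not pass the test (log2 fold change 1.27, edgeR adjusted p = 0.328). Of the 108 chloroplast members, 12 had no read in opt3-2 roots and 15 none in Columbia-0 roots, with a median of 6 reads per member in either group.

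No mitochondrial member passed the test in roots by edgeR, and more members had higher than lower means in opt3-2. Of 48 tested, edgeR called 0, DESeq2 called 2 and limma voom 0. By edgeR, 8.28% of all tested genes rose at an adjusted p under 0.05. At an unadjusted p under 0.05, 7 members rose and 0 fell, and the share of all tested genes at that limit was not counted. The median log2 fold change was 0.18, and of all 108 members 75 had a higher and 33 a lower mean CPM in opt3-2 roots. ATMG00020 had 84.3, 162 and 109 CPM in opt3-2 roots, against 80.6, 83.8 and 66.1 CPM in Columbia-0 roots. All mutant values were above all wild-type values, at a log2 fold change of 0.62 (SE 0.195, edgeR adjusted p = 0.0523). DESeq2 gave an adjusted p of 0.0139. With the replicate number as a block, edgeR gave 0.58 and an adjusted p of 0.036, and without opt3-2 root replicate 2 it gave 0.33 and 0.175.

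ATMG01390 followed ATMG00020 closely, with 86.5, 181 and 126 CPM in opt3-2 roots, against 94.7, 89.0 and 68.0 CPM in Columbia-0 roots. Here the lowest mutant value lay within the wild-type range, at a log2 fold change of 0.64 (SE 0.22, edgeR adjusted p = 0.0711; DESeq2 adjusted p = 0.0223). Without opt3-2 root replicate 2 it was 0.34 (edgeR adjusted p = 0.264), and without opt3-2 root replicate 1 it was 0.87 (edgeR adjusted p = 0.00782). With each library scaled to mitochondrial reads, ATMG01390 gave 0.12 (edgeR adjusted p = 0.506) and ATMG00020 gave 0.10 (edgeR adjusted p = 0.465). Both make up most of the mitochondrial reads in roots, so that scaling leaves them little room to differ and cannot decide whether they changed. The same replicate, opt3-2 root 2, held the highest root value of ATCG00920 (13.8 CPM) and of ATCG00950 (25.3 CPM) too. Green tissue markers summed to 529, 327 and 259 CPM in opt3-2 roots, against 385, 236 and 336 CPM in Columbia-0 roots, so that replicate did not stand out in them. The 7 root markers, genes tied to the endodermis or root hairs, summed to 198 to 288 CPM in opt3-2 roots and 263 to 322 CPM in Columbia-0 roots. In leaves they summed to 50.8 to 52.2 CPM in opt3-2 and 51.1 to 51.8 CPM in Columbia-0. In each genotype 6 of the 7 were called lower in leaves than in roots. The remaining 1 had a leaf over root log2 fold change of 0.11 in Columbia-0, not called, and 0.48 in opt3-2, called higher. Not all 7 were thus particular to roots here. None of the 7 was at 0 reads in opt3-2 leaves, and 1, RSL4, was in Columbia-0 leaves. RSL4 rose in opt3-2 roots (log2 fold change 1.42, edgeR adjusted p = 0.00127) and SHR fell in opt3-2 leaves (-0.31, edgeR adjusted p = 0.0188). The part of these markers in the organelle values was not tested.

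The difference between the tissues' genotype effects was tested as an interaction, the leaf log2 fold change minus the root one. Among chloroplast members 0 were higher and 2 lower (edgeR; 0 and 8 at an unadjusted p under 0.05), and limma voom called 5 lower. The count was 3 without opt3-2 root replicate 3 or opt3-2 leaf replicate 2 and 1 without Columbia-0 root replicate 1 or 2. Among mitochondrial members 0 were higher and 3 lower (edgeR; 0 and 7 unadjusted). Leaving out opt3-2 root replicate 3 gave 5, and leaving out Columbia-0 root replicate 2 gave 1. Over all tested genes 8.45% were higher and 7.69% lower. With each library scaled to the reads of the same genome, no member of either genome was called.

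The chloroplast members were ATCG00830, with a difference of -1.61 (SE 0.354, edgeR adjusted p = 0.0104), and the sparsely read ATCG01170, with -2.80 (SE 0.72, edgeR adjusted p = 0.0216). ATCG00830 had 0.162, 0.353 and 0.371 CPM in opt3-2 roots, against 0.203, 0.214 and 0.161 CPM in Columbia-0 roots, which overlap, while in leaves its groups were far apart. Its partner ATCG01310 had a difference of -1.12, which did not pass (edgeR adjusted p = 0.0698). ATCG01170 lost the call without opt3-2 root replicate 2, Columbia-0 root replicate 1 or Columbia-0 root replicate 2 (edgeR adjusted p 0.0503, 0.0579 and 0.0613).

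The mitochondrial members were ATMG00480, ATMG01280 and ATMG01320. ATMG01280, the cytochrome c oxidase subunit II-like member, had 0.433, 0.289 and 0.340 CPM in opt3-2 roots, against 0.203, 0.161 and 0.161 CPM in Columbia-0 roots. It was thus higher in every mutant root replicate (log2 fold change 1.01, edgeR adjusted p = 0.0677, not past the test) and lower in every mutant leaf replicate, with a difference of -1.96 (SE 0.437, edgeR adjusted p = 0.0112). ATMG00480, described as subunit 8 of the F0 part of ATP synthase, had 0.460, 0.578 and 0.371 CPM in opt3-2 roots, against 0.145, 0.241 and 0.386 CPM in Columbia-0 roots. In leaves it had 0.768, 0.753 and 0.912 CPM in opt3-2, against 1.16, 1.51 and 1.35 CPM in Columbia-0. Root groups overlapped and leaf groups did not, and the difference was -1.60 (SE 0.418, edgeR adjusted p = 0.0235). It lost the call without opt3-2 root replicate 2 or Columbia-0 root replicate 1 or 2 (edgeR adjusted p 0.062, 0.0536 and 0.0585). ATMG01320 had a difference of -0.82 (SE 0.254, edgeR adjusted p = 0.0491) and lost the call without any one of 8 libraries, all but opt3-2 root replicates 2 and 3, opt3-2 leaf replicate 1 and Columbia-0 leaf replicate 3 (edgeR adjusted p 0.0565 to 0.097).

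The chromosome 2 copies were read beside these members, and no test compared a copy with its member. AT2G07695, the copy paired with ATMG01280, averaged 0.633 ± 0.201 CPM in opt3-2 leaves and 0.868 ± 0.188 CPM in Columbia-0 leaves (SD, n = 3 each), and its difference between tissues was -0.86 (SE 0.446, edgeR adjusted p = 0.22). Its fitted values had the same signs as those of ATMG01280, at log2 fold changes of 0.40 in roots and -0.47 in leaves, and neither passed the test. AT2G07707, identical to the mitochondrial genome over 477 bases and paired with ATMG00480, had a difference of -0.15 (edgeR adjusted p = 0.852). When copies were summed with their members, the difference for ATMG00480 was -0.87 (edgeR adjusted p = 0.0625). AT2G07689, identical over 645 bases and paired with ATMG01320, held only 17 reads in opt3-2 roots and 14 in Columbia-0 roots, 25 in opt3-2 leaves and 13 in Columbia-0 leaves, and was not tested.

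**Figure D4:**
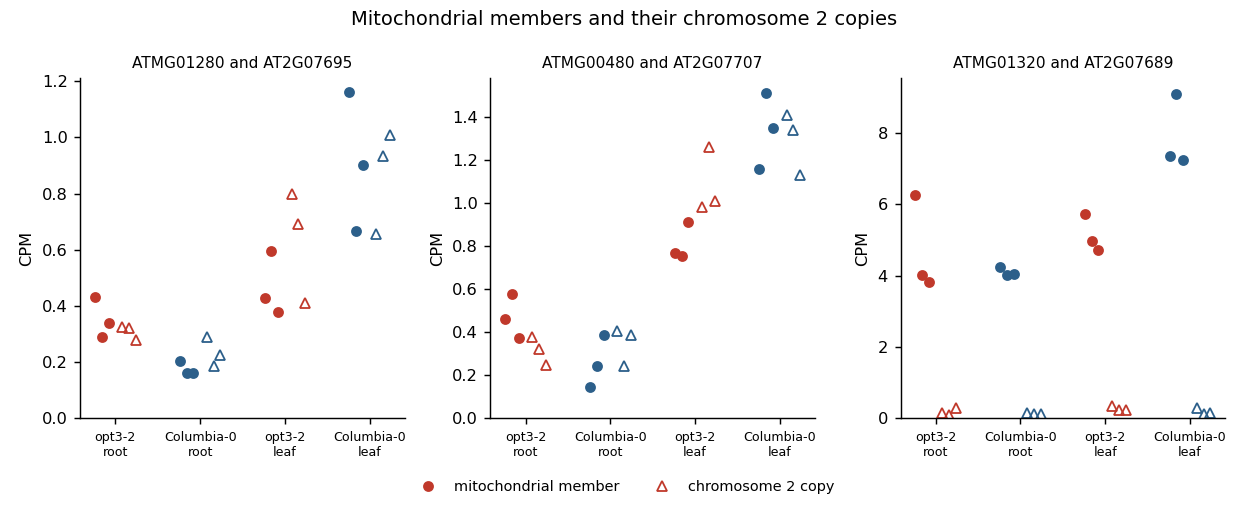
CPM of ATMG01280, ATMG00480 and ATMG01320 (filled circles) and of their chromosome 2 copies (open triangles) in each replicate of the 4 groups. ATMG01280 lies higher in opt3-2 than in Columbia-0 in roots and lower in leaves, and AT2G07689 stays near 0 beside ATMG01320.

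Leaves were set against roots within each genotype. All 108 chloroplast members had a higher mean CPM in leaves in both genotypes. Of 76 tested, 73 were higher and 0 lower in opt3-2, and 76 and 0 in Columbia-0 (edgeR), while over all tested genes 38.4% were higher and 40.4% lower in opt3-2, and 36.2% and 41.2% in Columbia-0. Most members passed the read filter through their leaf reads, so these counts follow in part from the filter; of the 11 that passed on root reads alone, 10 were higher in opt3-2 leaves, and 11 in Columbia-0 leaves. The median log2 fold change was 4.34 in opt3-2 and 5.02 in Columbia-0, or 4.23 and 4.93 with members at 0 root reads set to their bound.

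The members with the highest fitted values had no root reads in at least 1 genotype, so their order is not shown by these data. Their folds were computed with the root group set to a floor of 3 reads in all and are lower bounds. ATCG00690 had 73 reads in opt3-2 leaves and 0 in opt3-2 roots, and was thus at least 25.4-fold higher in leaves. In Columbia-0 it had 86 leaf reads and 0 root reads, at least 42.8-fold higher. ATCG00710 was at least 17.4-fold higher in opt3-2 leaves and at least 37.8-fold higher in Columbia-0 leaves, and ATCG00560 at least 22.6-fold higher in opt3-2 leaves and at least 25.9-fold higher in Columbia-0 leaves. ATCG00090 was at least 73.7-fold higher in Columbia-0 leaves, with 148 reads there and 0 in Columbia-0 roots, and it had 80 reads in opt3-2 leaves and 4 in opt3-2 roots.

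At the other end, ATCG00500, ATCG01010 and ATCG01130 differed least between tissues and were not called in opt3-2. Their log2 fold changes of leaf over root were 0.63, 0.07 and 0.72 in opt3-2, and 1.69, 1.69 and 0.84 in Columbia-0, where all 3 were called. Scaled to the chloroplast reads alone, all 3 were lower in leaves, at -3.74, -4.37 and -3.70 in opt3-2 and -3.27, -3.27 and -4.15 in Columbia-0, each called. Under that scaling 11 members were higher and 18 lower in opt3-2 leaves, and 16 and 17 in Columbia-0 leaves.

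Most tested mitochondrial members were higher in leaves too, by much less. Of 48 tested, 27 were higher and 4 lower in opt3-2 leaves (median log2 fold change 0.70), and 32 higher and 3 lower in Columbia-0 leaves (median 0.84). Over all tested genes 38.4% were higher and 40.4% lower in opt3-2 leaves, and 36.2% and 41.2% in Columbia-0 leaves. Both genotypes agreed in direction for 27 called members, 24 of them higher in leaves. The share of all tested genes that agreed was not counted, so this agreement is given as a description. Root reads alone sufficed for 40 of the 48 to pass the read filter. Of these, 21 were higher and 4 lower in opt3-2 leaves, and 27 higher and 3 lower in Columbia-0 leaves. Of all 108 members, 77 had a higher mean CPM in leaves in opt3-2 and 85 in Columbia-0.

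The dominant pair went the other way. ATMG00020 gave log2 fold changes of leaf over root of -1.81 in opt3-2 (SE 0.202) and -1.34 in Columbia-0 (SE 0.201), with edgeR adjusted p = 4.38e-06 and 6.09e-05. ATMG01390 gave -1.68 in opt3-2 and -1.05 in Columbia-0, and ATMG00030 gave -1.57 and -1.16. In each of these the leaf replicates of a genotype all lay below its root replicates. ATMG00830 was lower in leaves as well and was called in opt3-2 alone, at -1.58 there and -0.74 in Columbia-0; the difference between the genotypes did not pass the test (edgeR adjusted p = 0.431).

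ATMG01080, described as subunit 9 of the F0 part of ATP synthase, had 3.66, 3.26 and 3.81 CPM in opt3-2 leaves, against 1.11, 0.771 and 0.741 CPM in opt3-2 roots, and 3.07, 3.96 and 3.49 CPM in Columbia-0 leaves, against 0.781, 0.616 and 0.804 CPM in Columbia-0 roots. The tissues were apart in both genotypes, at log2 fold changes of 2.02 and 2.26 for opt3-2 and Columbia-0. ATMG01090, described as ATP synthase subunit 9 as well, gave 1.95 in opt3-2 and 2.28 in Columbia-0. ATMG01190, described as ATP synthase subunit 1, gave 0.55 in opt3-2 and 0.43 in Columbia-0, below the median of the tested members in both. The highest in opt3-2 were ATMG00040 (2.51), ATMG00810 (2.24) and ATMG01080, and in Columbia-0 ATMG00670 (2.50), ATMG00480 (2.39) and ATMG01280 (2.34).

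**Figure D5:**
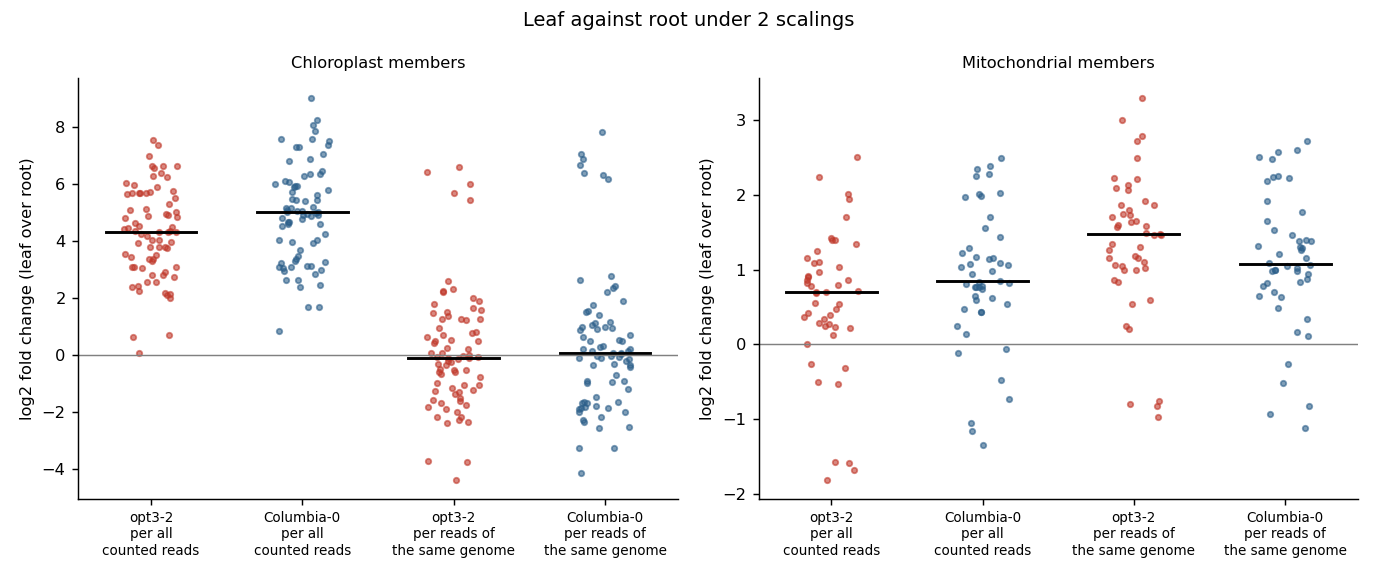
The log2 fold change of leaf over root of each tested member, by genotype, scaled to all counted reads or to the reads of the same genome; black bars are medians. Chloroplast medians are 4.34 in opt3-2 and 5.02 in Columbia-0 with all counted reads and close to 0 with chloroplast reads alone, whereas mitochondrial medians stay above 0.

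The other tested mitochondrial members with a described function did not differ between genotypes past the test in either tissue. They include ATMG00180, a cytochrome c biogenesis protein, at 4.30 CPM in opt3-2 leaves and 4.09 CPM in Columbia-0 leaves (log2 fold change 0.07), and ATMG01190, at 4.61 CPM in opt3-2 leaves and 3.89 CPM in Columbia-0 leaves (0.25). ATMG00590, described as a cytochrome b/b6 protein, averaged 1.41 CPM in opt3-2 leaves and 1.97 CPM in Columbia-0 leaves (-0.47, edgeR adjusted p = 0.198). Its description is uncertain, because the mitochondrial stretch that its chromosome 2 copy matches holds nad4, a complex I gene, in RefSeq. ATMG00980, a ribosomal protein of the S12/S23 family, averaged 0.965 CPM in opt3-2 roots and 0.450 CPM in Columbia-0 roots (1.08, edgeR adjusted p = 0.153). Summed with its chromosome 2 copy, ATMG00980 gave 1.16 (edgeR adjusted p = 0.0479).

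The copies of these last 2 members were called, and are named here after their values were seen. AT2G07675, identical to the mitochondrial genome over 378 bases and paired with ATMG00980, had 1.11, 2.18 and 1.48 CPM in opt3-2 roots, against 0.752, 0.723 and 0.579 CPM in Columbia-0 roots. The groups did not overlap, at a log2 fold change of 1.20 (SE 0.312, edgeR adjusted p = 0.0238). That call was lost without opt3-2 root replicate 2 (edgeR adjusted p = 0.0927) and without Columbia-0 root replicate 1, 2 or 3 (0.058 to 0.078). AT2G07718, paired with ATMG00590 at 99.983% identity over 5799 bases, had 1.38, 1.22 and 1.7 CPM in opt3-2 leaves, against 2.42, 2.23 and 2.25 CPM in Columbia-0 leaves. Its groups were separate too, at a log2 fold change of -0.68 (SE 0.227, edgeR adjusted p = 0.0443), and the call was lost without any one leaf library other than opt3-2 leaf replicate 3 (edgeR adjusted p 0.0686 to 0.121). Summed with this copy, ATMG00590 gave -0.58 (edgeR adjusted p = 0.0685).

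Nuclear genes that act on organelle transcription and RNA were read beside the members, in lists set against the shares of all tested genes, 7.28% fallen and 8.28% risen in roots and 12.6% fallen and 15.4% risen in leaves. Of the 3 phage-type RNA polymerases, 2 fell in opt3-2 roots and 0 rose, and none passed the test in leaves. MGP3 (AT1G68990), the mitochondrial polymerase, had 22.4, 20.3 and 26.0 CPM in opt3-2 roots, against 35.1, 33.9 and 31.6 CPM in Columbia-0 roots (log2 fold change -0.55, SE 0.085, edgeR adjusted p = 0.00115). AT5G15700, the polymerase sent to both organelles, had 10.8, 10.7 and 12.4 CPM in opt3-2 roots, against 19.8, 17.2 and 17.0 CPM in Columbia-0 roots (log2 fold change -0.67, SE 0.085, edgeR adjusted p = 0.00029). Both were lower in every mutant root replicate and kept their call under every alternative. SCA3, the plastid polymerase, did not pass the test in roots (log2 fold change -0.21, edgeR adjusted p = 0.0522). In leaves MGP3 had 31.4, 30.8 and 29.6 CPM in opt3-2, against 36.4, 34.4 and 33.2 CPM in Columbia-0 (edgeR adjusted p = 0.142). The difference between tissues passed for AT5G15700 at 0.49 (edgeR adjusted p = 0.0192) and not for MGP3 at 0.37 (edgeR adjusted p = 0.0564); the first was lost without opt3-2 leaf replicate 1, 2 or 3 or Columbia-0 leaf replicate 1 or 3 (edgeR adjusted p 0.051 to 0.0785).

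Of the 6 sigma factors, 1 rose in opt3-2 roots and 0 fell, and none passed in leaves. SIGE had 24.5, 19.0 and 28.5 CPM in opt3-2 roots, against 19.7, 14.5 and 16.1 CPM in Columbia-0 roots, overlapping slightly (log2 fold change 0.52, SE 0.151, edgeR adjusted p = 0.0385). That call was lost without opt3-2 root replicate 1 or 3 or Columbia-0 root replicate 2 or 3 (edgeR adjusted p 0.0815 to 0.143). SIGA, the most abundant in leaves, averaged 293 ± 15.8 CPM in opt3-2 leaves and 323 ± 11.0 CPM in Columbia-0 leaves (SD, n = 3 each; log2 fold change -0.14, edgeR adjusted p = 0.23).

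Of 13 proteins associated with the plastid polymerase, 2 fell and 0 rose in roots, and 1 rose and 0 fell in leaves, against 7.28% of all tested genes fallen in roots and 15.4% risen in leaves. FSD3, an iron superoxide dismutase of the plastid nucleoid, had 18.6, 18.4 and 18 CPM in opt3-2 leaves, against 15.0, 11.2 and 12.9 CPM in Columbia-0 leaves, without overlap (log2 fold change 0.49, SE 0.132, edgeR adjusted p = 0.0166). It lost the call without any one leaf library other than Columbia-0 leaf replicate 1 (edgeR adjusted p 0.0526 to 0.0889). In roots FLN2 had a log2 fold change of -0.46 (edgeR adjusted p = 0.033; lost without opt3-2 root replicate 2 or 3 or Columbia-0 root replicate 1 or 2, 0.0596 to 0.114). MURE had -0.19 (edgeR adjusted p = 0.0445), was lost without any one root library (0.0528 to 0.154) and with the replicate block (0.0972). PTAC3 and PTAC2, the most abundant in leaves, had log2 fold changes of 0.01 and 0.06 there (edgeR adjusted p = 0.951 and 0.676).

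Among 3 genes of organelle RNA turnover, 1 fell in roots and 1 in leaves, and none rose. AT5G14580, a polynucleotide phosphorylase, had 9.23, 8.41 and 7.26 CPM in opt3-2 roots, against 10.8, 11.8 and 11.3 CPM in Columbia-0 roots, at a log2 fold change of -0.44 (edgeR adjusted p = 0.0332; 0.0506 with the replicate block, and lost without opt3-2 root replicate 2 or 3 or any one Columbia-0 root replicate, 0.0649 to 0.109). RIF10, the chloroplast polynucleotide phosphorylase, had 82.2, 81.8 and 73.3 CPM in opt3-2 leaves, against 95.8, 92.7 and 88.2 CPM in Columbia-0 leaves (log2 fold change -0.22, SE 0.065, edgeR adjusted p = 0.0253). Its groups did not overlap, and the call was lost without opt3-2 leaf replicate 3 or Columbia-0 leaf replicate 1 (0.0634 and 0.0533). Of the 2 GOLDEN2-LIKE regulators of chloroplast development, GLK2 fell in leaves, with 238, 239 and 234 CPM in opt3-2, against 263, 288 and 262 CPM in Columbia-0 (log2 fold change -0.19, SE 0.061, edgeR adjusted p = 0.0337). It was lower in every mutant replicate, and the call was lost without opt3-2 leaf replicate 1, 2 or 3 or Columbia-0 leaf replicate 2 (0.0506 to 0.0816). GPRI1, the other regulator, had a log2 fold change of 0.09 in leaves (edgeR adjusted p = 0.611), and neither passed the test in roots.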

How the data were processed

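Leaf and root RNA of 12 plant pools (3 per group) was sequenced from TruSeq libraries, per the labels' protocols. TopHat2, edgeR and the genome build TAIR10 are named in the submitters' processing notes, without versions. How RNA was selected, its strand, the annotation and the counting program: not given in the sources used here. Raw read counts per gene, not normalized, stand in the table the authors deposited. Its 36 columns with a T, a letter no title has, were not used; an S was read as leaf. The 3 runs of a replicate were summed: on members, the chi-square divided by its degrees of freedom lay at 0.789 to 1.46 for runs and at 2.23 to 6.19 for replicates. Whether replicates came from separate cultures is not stated, so p-values may rest on technical spread.

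Counts were tested with edgeR 4.0.16 in R 4.3.3 (quasi-likelihood, TMM, filterByExpr, 1 model of 4 groups with 8 residual degrees of freedom, Benjamini-Hochberg 0.05 over 21692 genes). The filter kept 76 chloroplast and 48 mitochondrial members; the 32 and 60 left out held 0.481% and 2.32% of their genome's reads. Alternatives used DESeq2 1.42.0, limma 3.58.1 (voom), other scalings, filters, blocks and left-out libraries. Root replicates with the same number deviated together for numbers 1 and 3 (r = 0.466 and 0.46 across genes). For number 2 the value was 0.157, beside 0.182 between opt3-2 replicate 2 and Columbia-0 replicate 1. The block is therefore given for roots, though no label says that the numbers pair samples. Chromosome 2 copies were matched with BLAST 2.17.0. Intervals and floors cover counting error only. Members, lists and rules were chosen with earlier results of these data known. The naming rule gave 5 abundant members per genome, called members past a mean log2 CPM of 1 without overlap, the 3 highest and lowest between tissues, and called or abundant genes of the nuclear lists. Since no identifier has a symbol, it allowed 2 risen and 2 fallen by name; the others were named after their values were seen.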

Additional observations from a re-analysis of the deposited data

Results flagged for a closer look

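For 7 genes the effect of opt3-2 on the log2 scale differed between leaves and roots by a test of the difference itself (edgeR interaction, leaf minus root, adjusted p under 0.05). Over all tested genes, 8.45% were higher and 7.69% lower in that test. The chloroplast members were ATCG00830, at -1.61, and ATCG01170, at -2.80. The mitochondrial members were ATMG00480, at -1.60, ATMG01280, at -1.96, and ATMG01320, at -0.82. The nuclear genes were AT5G15700, a phage-type polymerase, at 0.49, and AT5G44190 (GLK2), at -0.39. For AT5G44190 the adjusted p was 0.0116, and 0.0101 to 0.0333 when single libraries were left out. By contrast, ATCG01170, ATMG00480, ATMG01320 and AT5G15700 each lost the call in some fits with a single library left out. With each library scaled to the reads of the same genome, none of the chloroplast or mitochondrial members was called.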

How the results depend on the processing

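Of the 225 recomputed counts and shares under other settings, 177 stayed within the limits used, 46 moved and 2 reversed. For counts the limit was on the total called, whatever the direction and whichever the members. For shares it came down to the sign, since no exact p here can fall under 0.05. The 177 is therefore a lenient measure of stability. Of the values of named genes, 1519 kept direction and side of the threshold, 175 lost a call, 26 gained one and 48 reversed. The causes were not tested, and the single-run setting also held fewer reads. Of chloroplast members in roots (2 called), 4 were called with each library scaled to reads of the same genome, 1 with the run set as a term, and 0 with the 2 root groups alone or with the lowest run alone. In leaves (19 called) there were 32 with the leaf groups alone and 8 with the lowest run. Differences between tissues (2 called) numbered 5 with limma voom and 0 with same-genome scaling or the lowest run. Leaf against root gave 29 called chloroplast members in opt3-2 and 33 in Columbia-0 under same-genome scaling.

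Of mitochondrial members in roots (0 called), 2 rose with DESeq2, and 1 rose with factors from nuclear genes, no filter, the replicate block, chromosome 2 copies summed in (an alternative added after seeing the data) or the lowest run, while 1 fell with same-genome scaling. In leaves (4 called) there were 7 with DESeq2 size factors or nuclear factors, 8 with the leaf groups alone, and 2 with the lowest run, all lower; with same-genome scaling 1 was higher and none of the 4 was called. Differences between tissues (3 called) numbered 0 with same-genome scaling and 1 with the lowest run. Leaf against root gave 15 in opt3-2 and 17 in Columbia-0 with the lowest run.

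Leaving out single libraries gave 0 to 2 called chloroplast members in roots, 10 to 25 in leaves, 1 to 3 for the difference between tissues, 74 to 83 for leaf against root in opt3-2 and 77 to 86 in Columbia-0. Mitochondrial counts were 0 to 2, 0 to 5, 1 to 5, 28 to 32 and 30 to 38 for the same comparisons. Differences in RPM, opt3-2 minus Columbia-0, were -3.583 to 21.22 for the chloroplast in roots, -331.5 to -66.44 in leaves, 37.35 to 127.2 for the mitochondrion in roots and -11.76 to -2.359 in leaves. Without its 4 dominant members, a setting added after seeing the data, the chloroplast difference in roots was -1.366 RPM.

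Reversed log2 fold changes were small for dominant members. Same-genome scaling leaves the dominant chloroplast members little room to differ, since they make up most of the reads divided by. In leaves ATCG00920 gave 0.114 with same-genome scaling and 0.050 with the run set, ATCG01210 gave 0.108 and 0.059, and with same-genome scaling ATCG00950 gave 0.067 and ATCG01180 gave 0.056. ATMG01390 in leaves gave -0.026 with DESeq2 size factors, -0.025 with upper-quartile factors, -0.023 with nuclear factors, -0.026 with DESeq2, -0.023 with no filter, and -0.111 to 0.057 with single libraries left out. In roots ATCG00020 gave -0.073 with the lowest run and -0.178 to 0.708 with libraries left out, ATCG00920 gave -0.054 to 0.583, and with same-genome scaling ATMG00030 gave -0.252, ATMG00090 gave -0.279 and ATMG00510 gave -0.423. ATMG00510 in roots gave -0.071 with the run set and -0.183 to 0.156 with libraries left out. Leaf against root under same-genome scaling gave -3.739, -4.365 and -3.703 for ATCG00500, ATCG01010 and ATCG01130 in opt3-2, and -3.267, -3.268 and -4.150 in Columbia-0. ATCG01010 in opt3-2 gave -0.133 with upper-quartile factors and -0.245 to 0.31 with libraries left out. Among nuclear genes, AT3G04260 (PTAC3) in leaves gave -0.033 with DESeq2 size factors, -0.031 with upper-quartile factors, -0.028 with nuclear factors, -0.033 with DESeq2, -0.028 with no filter, -0.006 with the leaf groups alone, -0.078 with the lowest run and -0.051 to 0.005 with libraries left out. With libraries left out, AT1G74850 (PTAC2) in leaves gave -0.007 to 0.047, AT5G63420 in leaves gave -0.011 to 0.068, and AT2G20570 in roots gave -0.306 to 0.217.

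Leaf replicates that share a number did not deviate together (r = -0.0722, -0.0393 and 0.0068 across genes). These values show no shared deviation but cannot exclude that leaf samples of a number belong together. With the replicate block, called chloroplast members numbered 24 in leaves, 2 in roots and 2 by interaction, and mitochondrial ones 3, 1 and 3. The block changed the call in roots for ATMG00020, MURE and AT5G14580. Leaving out ribosomal and transfer RNA genes was not run, since the reference names none of the identifiers. In roots, a median of 6 reads per chloroplast member limits what can be detected.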
